A study of Mus musculus and Homo sapiens with 56 samples.

Results

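RNA from mouse embryonic stem (ES) cells with a D395A substitution in METTL3 was compared with RNA from wild-type (WT) cells, over the genes whose exons share no base with an exon of any gene on the opposite strand. By the exon coordinates of the count table, 43906 of 52459 genes met this rule and are called members here. Of these, 20118 had no count in any library, 11411 had counts but fell under the count filter, and 12377 were tested. Both groups were E14TG2a cells, a male mouse ES line, labelled untreated and grown on gelatin in N2B27 medium with knockout serum replacement, LIF, the MEK inhibitor PD0325901 and the GSK3β inhibitor CHIR99021. The first group was WT (2 libraries) and the second carried D395A (2 libraries), a change in the catalytic centre of METTL3, and the labels do not say how many D395A clones were used. RNA was depleted of ribosomal RNA and sequenced from a strand-marking kit. The labels do not say whether replicates were separate cultures, so p-values measure only the spread between these libraries, which may be technical.

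METTL3 is the catalytic subunit of the complex that places N6-methyladenosine (m6A) on messenger RNA as it is transcribed. The mark is read by YTH-domain proteins, and in the cytoplasm it is best known for shortening the life of the RNA that carries it. Stem cells kept in LIF with inhibitors of MEK and GSK3β hold a naive state, in which genes for housekeeping complexes are highly expressed and genes of tissue formation, such as morphogen receptors, guidance molecules and lineage transcription factors, are kept low.

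Total counts ranged from 12743677 to 19246342 per library. CPM below are read counts scaled to library size with trimmed mean of M-values (TMM) factors, and errors are SD over 2 libraries unless a standard error (SE) is named. Among members the log2 CPM of the libraries correlated at 0.994 within WT, 0.993 within D395A and 0.898 to 0.905 between the groups, across genes, which are not independent replicates. The chi-square per degree of freedom between replicates was 2.33 in WT and 5.82 in D395A, so D395A replicates differed more than WT replicates. Mettl3 is not a member, since 21.1% of its exonic bases are overlapped on the opposite strand. It measured 36.1 and 35.5 CPM in the WT libraries against 30.5 and 33.8 CPM with D395A, a difference that did not pass (adjusted p = 0.114, edgeR quasi-likelihood test, Benjamini-Hochberg). Its RNA is counted with or without the changed codon, so the genotype cannot be read from it. Opposite-strand signal differed between the groups: over the 203 tested genes with more than 90% of exonic bases overlapped, the median log2 fold change (D395A over WT) was 5.26, against -0.07 over the members. The part of this difference in the results for members was not tested beyond a stricter rule, which left out members with any exon inside an opposite-strand gene.

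Marker lists of ES cells and of other cell types were measured first. All 12 non-overlapped ES core genes were tested, and 11 fell and none rose. Their summed level was 6612 and 6487 CPM in WT and 2790 and 2825 CPM in D395A, so the groups did not overlap, and they remained well expressed in both. The summed feeder and fibroblast markers (10 genes) stayed between 5.15 and 8.66 CPM in all libraries, those of muscle and heart (6 genes) between 1.79 and 3.34 CPM, and those of blood (8 genes, 1 at 0) between 7.32 and 10.7 CPM. Endothelial markers (6 genes) summed to 258 and 265 CPM in WT and 98.9 and 114 CPM in D395A, mainly through Pecam1, which ES cells also express. Neuron markers (7 genes) summed to 44.7 and 41.8 CPM in WT and 27.3 and 25.1 CPM in D395A, and visceral and parietal endoderm markers (6 genes, 1 at 0) to 8.95 and 9.43 CPM in WT and 3.57 and 4.78 CPM in D395A. Trophoblast markers (9 genes, 1 at 0) moved the other way, from 82.6 and 81.7 CPM in WT to 114 and 107 CPM in D395A. In bulk RNA, a change in the number of cells of a type and a change in RNA per cell cannot be told apart.

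The data held a pair of broad programmes that leaned in opposite directions. Genes of the machines that every dividing cell runs (proteasome, tRNA charging, splicing, nuclear pore, replication, mitosis, secretion, autophagy) were mostly modestly lower in D395A. Genes of the cell surface and of developmental signalling changed by larger factors and were more often higher. Over all tested members, 3999 rose (32.3%) and 4595 fell (37.1%), and 1928 (15.6%) rose and 1743 (14.1%) fell at least 2-fold, at an adjusted p below 0.05 by edgeR's quasi-likelihood test, with p-values adjusted by Benjamini-Hochberg over all tested genes. The 28 lists for gene expression, cell division and trafficking held 669 tested members, of which 380 fell and 127 rose, with a median log2 fold change of -0.23 (quartiles -0.49 and 0.05). At least 2-fold changes were few among them, with 12 rises (1.79%) and 23 falls (3.44%). The 20 lists for surface and signalling held 445 tested members, of which 226 rose and 131 fell, with a median of 0.31 (quartiles -0.43 and 1.34). Of these 142 rose (31.9%) and 60 fell (13.5%) at least 2-fold. In 25 of the 28 former lists more members fell than rose, and in 17 of the 20 latter more rose than fell. Taken library by library, the median difference of the former lists lay between -0.27 and -0.22 for every D395A library against every WT library, and that of the latter between 0.29 and 0.35, while replicates of a group differed by -0.02 to 0.06.

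**Figure D1:**
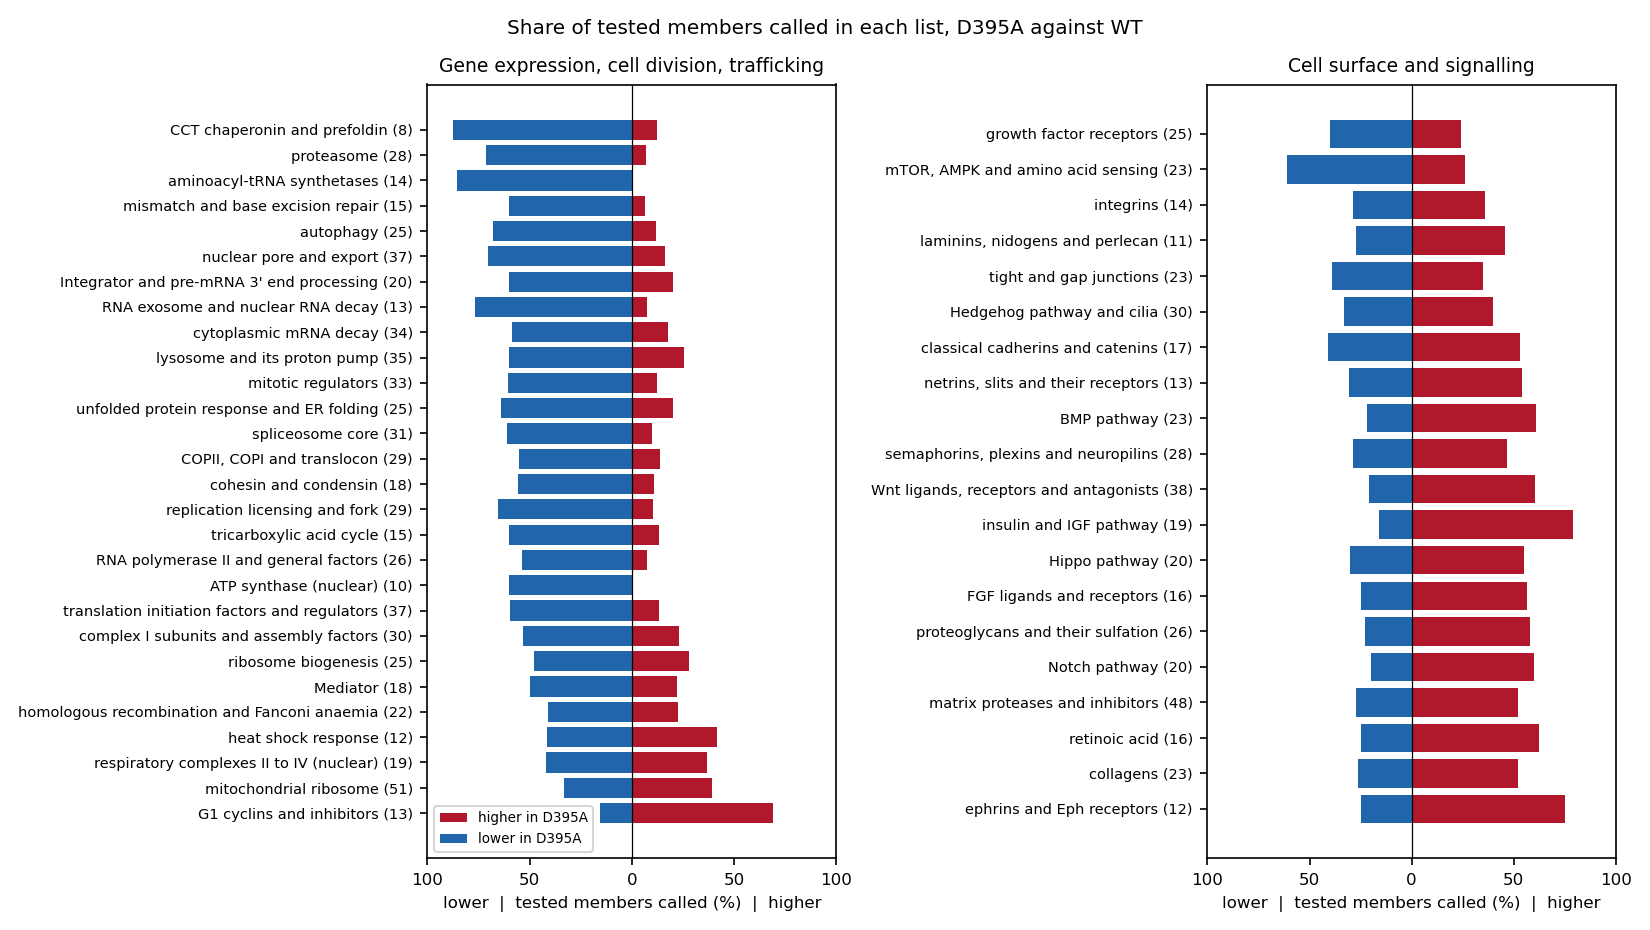
Each bar gives the percentage of tested members of a list that were called higher (red, right) or lower (blue, left) in D395A than in WT, with the number tested in parentheses. On the left, 25 of 28 lists have more lower than higher members, with G1 cyclins and inhibitors and the mitochondrial ribosome the exceptions and the heat shock response even; on the right, 17 of 20 have more higher members.

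Level bears on this contrast, since a member at low level can pass the count filter through the group where it is high alone. Among surface and signalling genes, 173 of 618 non-overlapped members were not tested (56 at 0 counts, 117 under the filter), against 5 of 674 of the machinery genes. The contrast was therefore read within classes of mean CPM. Between 30 and 100 CPM, 21.2% of 104 surface and signalling genes rose at least 2-fold, as did 2.60% of 269 machinery genes and 7.11% of all 2966 tested members. At 100 CPM or more, 10.6% of 66 surface and signalling genes rose and 15.2% fell at least 2-fold, against 0 and 2.60% of 308 machinery genes and 2.45% and 5.32% of 1956 members. In that highest class the median of surface and signalling genes was -0.01, so their lean towards rises was seen in the less expressed genes, whereas 215 of the 308 machinery genes fell (median -0.31, against -0.15 for all members of the class). These falls were 69.8%, against 49.5% of all members of the class. Between 50 and 100 CPM 43.2% of all members fell. The median level of machinery genes was 93.3 CPM, so falls in the single lists below are to be read against these shares. Some lists lie near them, such as ribosome biogenesis with 48% lower. With members that have an exon inside an opposite-strand gene left out, 364 of 639 machinery genes fell and 123 rose, and 215 of 415 surface and signalling genes rose and 123 fell.

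**Figure D2:**
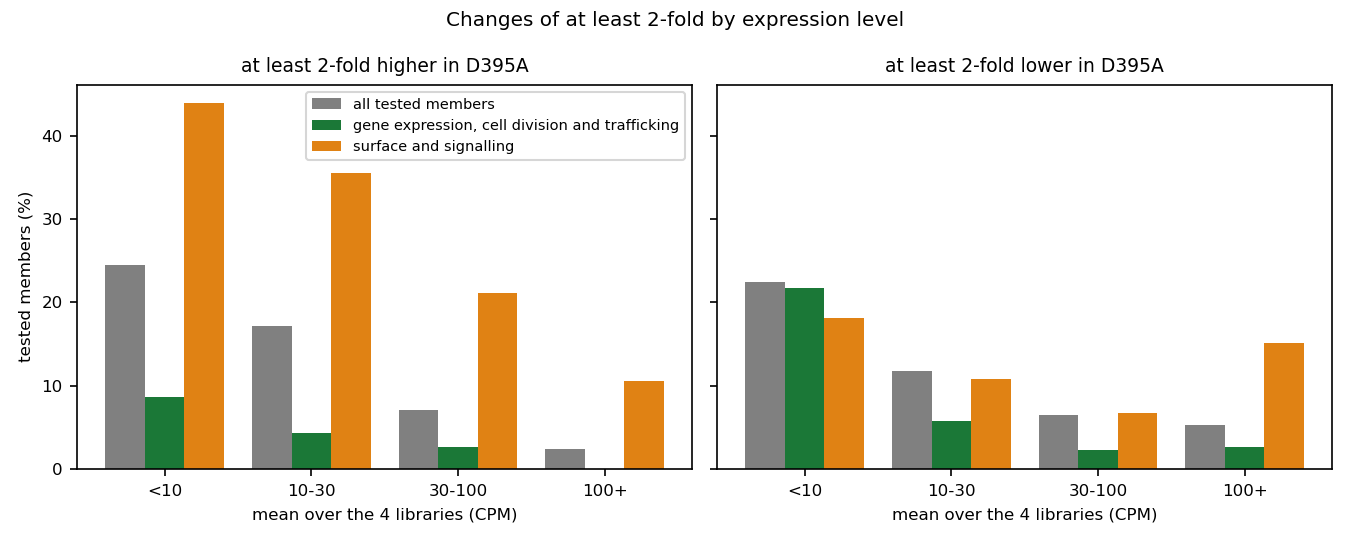
Bars give the percentage of tested members at least 2-fold higher (left panel) or lower (right panel) in D395A, in 4 classes of mean CPM, for all members (grey), the machinery lists (green) and the surface and signalling lists (orange). Surface and signalling genes exceed all members among the rises in every class, from 44.0% under 10 CPM to 10.6% at 100 CPM or more.

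The proteasome, which degrades ubiquitin-tagged proteins, fell broadly. Of 28 tested subunits, 20 fell and 2 rose, with a median of -0.48, and both the 20S core and the ATPase ring of the cap took part. Psmb3, a core subunit (mm10 chromosome 11, 97703399 to 97713500), was at 248 and 250 CPM in WT against 134 and 119 CPM in D395A, a log2 fold change of -0.97 ± 0.07 (SE; adjusted p = 1.11e-08, edgeR quasi-likelihood test, Benjamini-Hochberg). Psma8, the core subunit of testis proteasomes, fell from 29.1 and 28.0 to 9.57 and 7 CPM and was the only one of the 28 that changed at least 2-fold. Psmd5 and Psmd7 were the 2 that rose, by 0.24 and 0.19 on the log2 scale, and 0 of them were called without WT replicate 1 and 1 without WT replicate 2. The folding machines CCT and prefoldin, which receive new tubulin and actin chains, fell in 7 of 8 cases. Their fall was small, with a median of -0.51, and Pfdn5 alone rose.

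Protein synthesis genes followed. None of the 14 tested aminoacyl-tRNA synthetases, which load amino acids onto tRNAs, rose, and 12 fell (median -0.47). Kars, the lysyl enzyme, fell from 445 and 411 CPM to 225 and 237 CPM, and Dars, the aspartyl enzyme, from a mean of 206 to 111 CPM. Of 37 initiation factors and regulators, 22 fell and 5 rose (3 with either WT library left out). Eif2s2, the beta subunit of the factor that brings the initiator tRNA, fell from 610 and 634 CPM to 312 and 289 CPM, with no overlap between groups. The exceptions were large: Eif4g3, a scaffold of the cap complex, rose from 24.3 and 24.9 CPM to 92.7 and 105 CPM. Ribosome biogenesis was split, with 12 of 25 lower and 7 higher, and the 51 mitochondrial ribosome genes did not lean either way (20 higher, 17 lower, median 0.01).

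Along the path of messenger RNA, 19 of 31 core spliceosome genes fell and 3 rose (1 without WT replicate 2). The largest fall was that of Cdc5l, a scaffold of the active spliceosome, at 370 and 360 CPM in WT and 156 and 158 CPM in D395A. Of 37 nuclear pore and export genes 26 fell and 6 rose (3 without WT replicate 2). The 15 tested Nup genes, a subset chosen after the values were seen, held 12 falls. Nxt1, a partner of the mRNA export receptor, went against them and rose from 28.5 and 34.5 to 105 and 103 CPM. RNA decay genes fell as well, 10 of 13 in the nuclear exosome list and 20 of 34 in the cytoplasmic list, against 1 rise (2 without WT replicate 2 or D395A replicate 2) and 6 rises. Polr2a, the largest subunit of RNA polymerase II, had one of the largest losses in CPM of any member, from 1217 and 1161 to 504 and 616 CPM (log2 fold change -1.09 ± 0.09 SE, adjusted p = 8.69e-08, edgeR quasi-likelihood test, Benjamini-Hochberg). In its list 14 of 26 fell and 2 rose (4 without D395A replicate 2), and the smaller Polr2l rose from 20.1 and 17.2 to 36.4 and 31.5 CPM.

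Genes of replication and mitosis leaned down and G1 regulators up. Of 29 genes of replication licensing and the fork 19 fell and 3 rose, and of the 12 Gins, Mcm and Orc genes tested, a subset chosen after the values were seen, 11 fell and none rose. Gins3, of the helicase that opens DNA, fell from 25.4 and 24.5 CPM to 10.1 and 9.29 CPM. Of 33 mitotic regulators 20 fell and 4 rose, and the falls included the kinetochore genes Ndc80 (68.3 and 69.0 to 41.1 and 38.8 CPM) and Spc25. Mki67, the proliferation marker, was 1 of the 4 that rose, from 529 and 486 to 689 and 737 CPM. By contrast, 9 of 13 G1 cyclins, E2F factors and cyclin-dependent kinase inhibitors rose and 2 fell. The members that moved there act in both directions: the inhibitor gene Cdkn2d rose from 4.70 and 3.96 to 17.8 and 15.8 CPM and Cdkn1a (p21) from a mean of 249 to 375 CPM, while E2f1, which drives entry into S phase, rose from a mean of 70.0 to 93.2 CPM. Repair genes of the mismatch and base excision pathways fell in 9 of 15 cases and rose in 1 (2 without WT replicate 2 or D395A replicate 2).

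Membrane traffic and autophagy moved with the machinery. Of 25 autophagy genes 17 fell and 3 rose (median -0.44), and 5 of the falls were at least 2-fold, more than in any other machinery list. Atg14, which targets the lipid kinase that starts the autophagosome, fell from 75 and 74.9 to 19.7 and 18 CPM, and Atg13, of the starting kinase complex, from 119 and 126 to 39.2 and 39.9 CPM. Both kinases of that complex were measured and went opposite ways, Ulk1 from a mean of 449 to 241 CPM and Ulk2 from 8.05 and 9.64 to 64.5 and 67.1 CPM. Lysosome genes fell in 21 of 35 cases and rose in 9. Ctsc, a lysosomal protease, fell from 190 and 192 to 26.5 and 31.8 CPM, and Mitf, a regulator of lysosome genes, from 105 and 109 to 30.4 and 31.8 CPM, while Naglu, which breaks down heparan sulfate, rose from 5.15 and 4.07 to 20 and 19.8 CPM. Genes of endoplasmic reticulum folding (16 lower, 5 higher of 25) and of COPII and COPI coats (16 lower, 4 higher of 29) leaned the same way. The rises in the former were 2 without WT replicate 1, 1 without WT replicate 2 and 3 without D395A replicate 2, and those in the latter were 2 without WT replicate 1. The mTOR and nutrient sensing list, although counted with signalling, also leaned down, with 14 of 23 lower and 6 higher, yet its 2 leading rises were the lysosomal GTPase Rragd (87.2 and 92.6 to 291 and 304 CPM) and Sesn3.

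Several of the leading falls lie on chromosome 8, where members as a whole were lower: of 369 chromosome 8 members with at least 10 CPM, 250 fell and 59 rose, with a median of -0.44. Kars, Farsa, Gins3, Gins4, Edc4, Nup93, Gtf2e2, Utp4 and Cope are among them. Ash2l, Cdh1 and Zfp42, whose falls are given further below, lie on that chromosome too. Machinery members on that chromosome had a median of -0.66 (39 genes, 31 lower), and the 630 elsewhere had a median of -0.22 (349 lower, 124 higher). Without chromosomes 8 and Y the proteasome still counted 20 falls of 26, synthetases 10 of 12, spliceosome core 18 of 30, nuclear pore 25 of 36, replication 16 of 25 and autophagy 16 of 24. The list of NuRD, CoREST and Sin3 corepressors moved more: its lower members went from 10 of 21 to 6 of 17 and its median from -0.07 to 0.12.

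Chromatin regulators shifted little as a class, with 42 of 95 lower, 23 higher and 4 at least 2-fold in each direction. Individual subunits did change. Ash2l and Wdr5, shared subunits of the complexes that methylate histone H3 at lysine 4, fell from 493 and 474 to 202 and 205 CPM and from 322 and 316 to 179 and 181 CPM. Among SWI/SNF subunits Arid1b rose from 117 and 115 to 291 and 327 CPM and Arid2 from 162 and 165 to 283 and 321 CPM, and Chd3 of the NuRD complex rose 2.14-fold. The linker histone gene H1f0, known to accumulate in resting and differentiated cells, rose from 41.8 in both WT libraries to 203 and 190 CPM (log2 fold change 2.23 ± 0.07 SE, adjusted p = 1.8e-12, edgeR quasi-likelihood test, Benjamini-Hochberg).

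Adhesion genes moved in both directions within families. Among 17 cadherins and catenins 9 rose and 7 fell. E-cadherin (Cdh1), which holds ES cell colonies together, fell from a mean of 1070 to 680 CPM, and its cytoplasmic partner Jup (plakoglobin) from 285 and 261 to 76.1 and 88.3 CPM. N-cadherin (Cdh2), a cadherin of neural and mesodermal tissue, rose from 4.70 and 5.25 to 39.3 and 39.0 CPM, P-cadherin (Cdh3) from 4.77 and 4.55 to 45.5 and 49.4 CPM, and Cdh6, Cdh10, Cdh11 and Cdh13 rose from means under 1 CPM to between 2.20 and 3.43 CPM. Cdh1 remained far above Cdh2 and Cdh3 in D395A. The summed cadherin and catenin list fell from 2169 and 2116 CPM in WT to 1433 and 1498 CPM in D395A. This list depends on chromosome 8, which holds 4 of its genes, and without that chromosome 6 rose and 6 fell. At junctions, Jam2 (mm10 chromosome 16, 84774123 to 84825928) fell from 586 and 593 to 42.0 and 46.0 CPM, a log2 fold change of -3.74 ± 0.08 (SE; adjusted p = 5.84e-14, edgeR quasi-likelihood test, Benjamini-Hochberg), while the gap junction gene Gja1 (connexin 43) rose from 25.9 and 22.2 to 152 and 159 CPM.

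Guidance molecules also moved in both directions within families. Over the list of 12 tested ephrins and Eph receptors 9 rose and 3 fell, and its split into ligands and receptors was chosen after the values were seen. All 6 tested ephrin ligands rose, led by Efnb1 (7.16 and 6.48 to 37.4 and 44.4 CPM), whereas their receptors divided into 3 that rose and 3 that fell. The falling receptors were Epha4 (304 and 305 to 21.8 and 25.8 CPM), Ephb3 (77.3 and 77.2 to 21 and 24.8 CPM) and Epha2 (a mean of 154 to 58.6 CPM), all at least 2-fold lower, with no overlap between groups. Among semaphorins, plexins and neuropilins 13 of 28 rose and 8 fell. The secreted Sema3e and Sema3c rose from under 1 CPM to 35.4 and 37.9 CPM and to 9.04 and 9.29 CPM, and Sema5b fell from 29.9 and 28.0 to 4.63 and 3.56 CPM. Slit3, a ligand of Robo receptors, rose from 9.92 and 9.59 to 36.2 and 42.0 CPM.

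In the matrix around the cell, collagen genes rose more often than they fell, and Lama1, the laminin chain typical of early embryonic basement membrane, fell. Of 23 collagen genes 12 rose and 6 fell (median 0.97). The rises included Col5a2 (0.970 and 1.45 to 11.7 and 12.6 CPM) and the cartilage collagen Col2a1 (1.57 and 1.02 to 11.2 and 12.3 CPM), and the falls Col1a1 and Col1a2 (means of 4.06 to 1.54 CPM and 1.54 to 0.410 CPM). Lama1 fell from 342 and 351 to 36.3 and 41.4 CPM within a list of 11 in which 5 rose (3 without WT replicate 1) and 3 fell. Dystroglycan (Dag1), a laminin receptor, rose from 357 and 352 to 624 and 672 CPM. Matrix proteases and their inhibitors rose in 25 of 48 tested cases and fell in 13, out of 122 non-overlapped genes of that list. Adamts1 and Mmp16 went from under 1 CPM to between 8.60 and 12 CPM. Of 26 proteoglycan and sulfation genes 15 rose and 6 fell, led by the sulfotransferase gene Hs6st2 and the glypican gene Gpc6 (7.61 and 8.57 to 38.0 and 42.6 CPM).

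**Figure D3:**
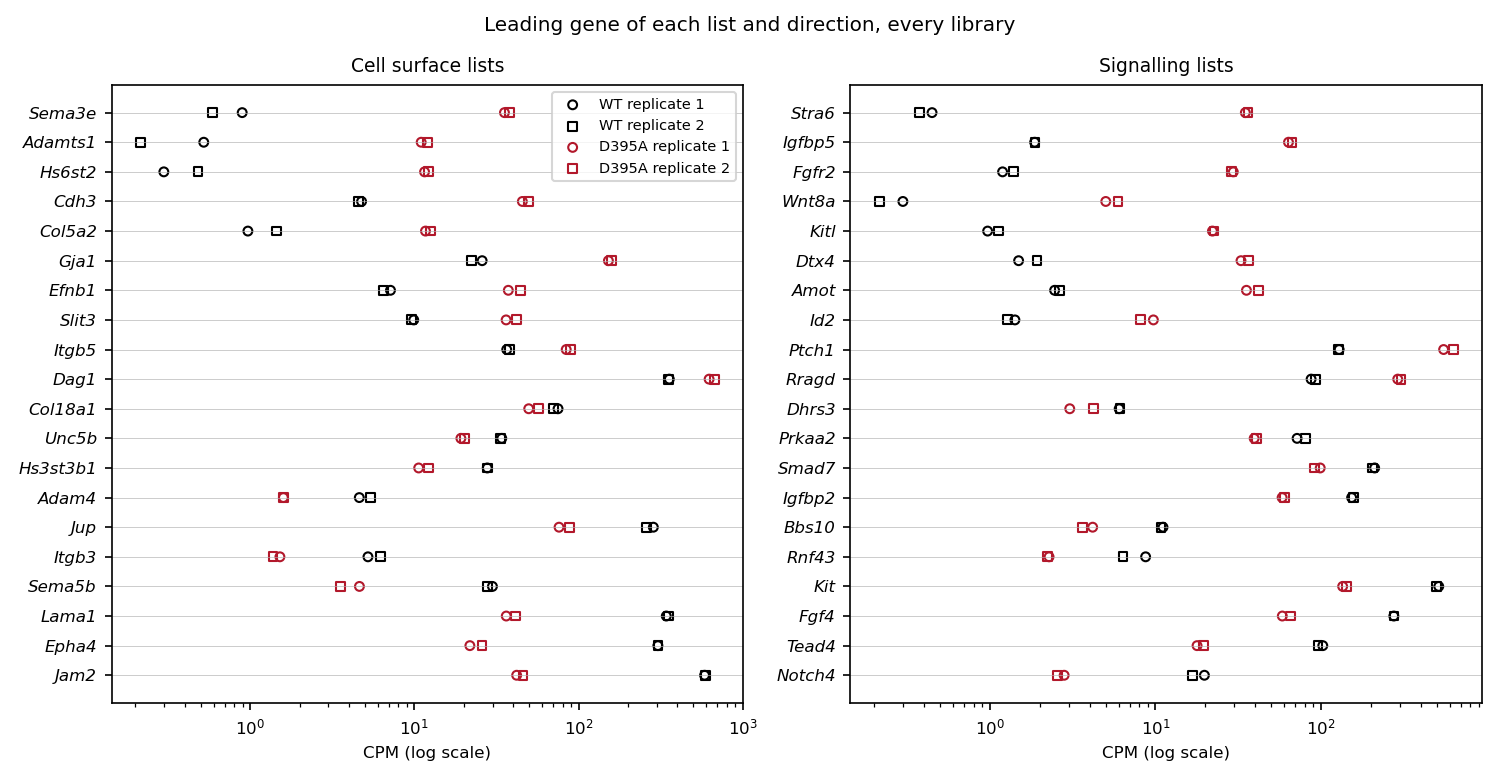
Each row shows the CPM of a gene in every library on a log scale, WT in black and D395A in red, replicate 1 as circles and replicate 2 as squares. The genes are those of largest rise and largest fall in each surface (left) and signalling (right) list by the naming rule, a rule that asks for D395A libraries beyond both WT libraries. Replicates lie close together, as for Jam2 (586 and 593 CPM in WT, 42.0 and 46.0 CPM in D395A).

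Receptors of the Wnt pathway rose nearly as a family. Of 38 Wnt ligands, receptors and antagonists 23 rose and 8 fell, and of the 9 tested Frizzled receptors, a subset chosen after the values were seen, 8 rose and 1 (Fzd10) fell. Fzd2 (mm10 chromosome 11, 102604396 to 102608058) rose from 10.3 and 9.05 to 161 and 155 CPM, a log2 fold change of 4.04 ± 0.08 (SE; adjusted p = 5.84e-14, edgeR quasi-likelihood test, Benjamini-Hochberg). Wls, which carries Wnt proteins to the surface, rose from a mean of 37.1 to 90.3 CPM, and the receptor kinase Ror2 from 82.5 to 149 CPM. The falls included the secreted antagonist Sfrp1 (174 and 159 to 52.3 and 56.3 CPM, on chromosome 8), Fzd10 (a mean of 112 to 45.8 CPM) and Rnf43, a ligase that removes Frizzled proteins from the surface. Sp5, a common target of Wnt signalling and among the 12 members with the largest gain in CPM, rose from 82.9 and 76.2 to 522 and 436 CPM. It was named for that gain. No list of Wnt target genes was counted here, so the activity of the pathway was not tested. Both groups were grown with a GSK3β inhibitor, which acts below these receptors.

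Several Hedgehog receptor and pathway genes rose, whereas genes of the cilium, where the pathway signals, did not rise as a set. Ptch1, the receptor and itself a target of the pathway (mm10 chromosome 13, 63508328 to 63573598), rose from 129 and 127 to 551 and 630 CPM, and Smo, Gli2, Boc and Sufu rose as well, Smo from 38.9 and 39.3 to 114 and 110 CPM. Of the 12 tested intraflagellar transport genes, which build the cilium, 7 fell (58.3%) and 4 rose (33.3%). Over all tested members 37.1% fell and 32.3% rose. Only 16.7% of the 12 carried an m6A peak of the WT list used below. Among all members without such a peak, at 10 CPM or more, 51.1% fell. Of 6 Bardet-Biedl genes 3 fell and none rose. The falls were modest apart from Bbs10, from 11.1 and 10.8 to 4.18 and 3.61 CPM. Over the whole list 12 of 30 rose and 10 fell, and the grouping into pathway and cilium genes was made after the values were known.

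Ligands, receptors and modulators moved in both directions in other pathways too. In the retinoic acid list 10 of 16 rose and 4 fell (2 with either WT library left out). Stra6, the transporter that takes up retinol, rose from 0.447 and 0.375 to 34.9 and 36.2 CPM, Stra8, a gene named for its induction by retinoic acid, from 9.55 and 9.27 to 211 and 169 CPM, and the carrier Crabp2 from a mean of 0.871 to 11.7 CPM. The receptors Rara, Rarg and Rxra rose by 0.59, 0.88 and 1.05 on the log2 scale, and the synthesizing enzyme genes Aldh1a3 and Aldh1a2 fell, from means of 2.53 and 4.65 to 0.118 and 3.24 CPM. In the FGF list (9 higher, 4 lower of 16) the ligand Fgf4, which ES cells make and respond to, fell from 275 and 276 to 58.4 and 65.3 CPM, and the receptor Fgfr2 rose from 1.19 and 1.39 to 29.5 and 28.9 CPM. The stem cell factor pair did the reverse: its receptor Kit fell from 515 and 498 to 135 and 143 CPM and the ligand Kitl rose from 0.970 and 1.12 to 22.1 and 22.6 CPM.

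The BMP list held 14 rises and 5 falls among 23 genes. Its direct target genes Id1, Id2 and Id3, whose products block basic helix-loop-helix factors, rose by 1.13, 2.72 and 1.21 on the log2 scale, as did the inhibitory Smad6 (6.71 and 5.73 to 19.7 and 16.7 CPM), while the other inhibitory gene, Smad7, fell from 211 and 206 to 99.0 and 91.8 CPM. Notch genes rose in 12 of 20 cases and fell in 4. The receptor Notch2 rose from a mean of 114 to 305 CPM, the ligand Jag2 from 11.1 to 37.2 CPM and the ligase gene Dtx4 from 1.49 and 1.93 to 32.9 and 36.6 CPM, while Notch4 fell from 19.8 and 16.7 to 2.81 and 2.55 CPM and the target gene Hes1 from 81.4 to 47.3 CPM. Insulin and IGF genes rose in 15 of 19 cases and fell in 3. The rises included Insr, Igf1r, Akt1 and Foxo4, and the leading one was Igfbp5 (1.86 and 1.87 to 63.6 and 66.8 CPM). In the Hippo list, 11 of 20 rose and 6 fell: the kinase gene Lats2, the adaptor genes Amot, Ajuba and Limd1 and the target Cyr61 rose, whereas the DNA-binding partners Tead4 (103 and 95.9 to 17.8 and 19.5 CPM) and Tead1 and the coactivator Wwtr1 (TAZ) fell. Cytokines and their receptors rose in 27 of 48 tested cases and fell in 8. That list held 152 non-overlapped genes, 51 of them at 0 counts, so most were not tested. Genes at low level can pass the filter through the group where they are high alone, which limits this count.

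Families of developmental transcription factors changed by large factors from low levels. Of 186 non-overlapped members of the Sox, Fox, T-box, Gata, Tfap2, Tead and non-Hox homeobox lists 73 were not tested, and of the 113 tested 56 rose and 33 fell, with 37 rises (32.7%) and 21 falls (18.6%) of at least 2-fold. The lean towards rises was seen under 30 CPM: between 30 and 100 CPM 5 rose and 6 fell, and at 100 CPM or more 5 rose and 6 fell. Sox genes rose in 8 of 10 cases, with Sox13 lower (2 lower without D395A replicate 1) and Sox2, the pluripotency factor, not passing at log2 fold change -0.09. Sox3, of the neural Sox group, rose from 1.49 and 1.5 to 29.1 and 26.1 CPM, and Sox11 from 5.07 and 6 to 38.7 and 44.2 CPM. Of 63 homeobox genes 29 rose and 18 fell, Zfhx4 from 0.597 and 1.07 to 58.9 and 56 CPM, while Otx2, needed for the exit from naive pluripotency, fell from 11.7 and 12.1 to 1.90 and 0.212 CPM. Those 2 D395A values differ widely from each other, although both lie under the WT values.

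Other lists were mixed. Apoptosis regulators rose in 14 of 28 cases and fell in 8, with the initiator caspase Casp8 going from 5.30 and 4.18 to 29.1 and 30 CPM and the TNF receptor gene Tnfrsf1a from 17.2 and 14.6 to 48.5 and 56.6 CPM. Among antigen presentation genes 6 of 11 rose and 1 fell (0 with WT replicate 1 or either D395A library left out), with the class I genes H2-K1 and H2-D1 rising from means of 16.5 to 41.4 CPM and from 10.7 to 22 CPM. Reads of these similar class I genes may have been shared out. Potassium channel genes rose in 14 of 27 tested cases and fell in 4, out of 69 non-overlapped genes. Of 38 tested neurotransmitter receptor genes 17 rose and 11 fell, out of 88. Over all tested members 32.3% rose and 37.1% fell. The many untested genes limit these counts, since low genes can pass the filter through the group where they are high alone. Solute carriers, the largest list of transporters, were balanced with 78 higher and 68 lower of 199, as were tubulins and microtubule-associated proteins with 30 and 24 of 69. Within glutathione and NRF2 target genes Gpx2 rose from 13.6 in both WT libraries to 173 and 144 CPM, and the mitochondrial Sod2 fell from 287 and 293 to 95.5 and 96.3 CPM.

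Some families of neighbouring genes moved in one direction. On the X chromosome, 10 tested members of the Xlr and Mage families lie within mm10 positions 72222017 to 73292976, and all 10 fell at least 2-fold, with a median log2 fold change of -4.89. Xlr3b stood at 14.1 and 16.9 CPM in WT and 0.380 and 0.159 CPM in D395A, and Xlr3a at 18.8 and 18.4 against 1.67 and 1.7 CPM. Of the 6 other tested members within the run, Pnma5 fell as far (log2 fold change -5.08), 3 rose and 2 did not pass. Of the 10, 2 had no count in D395A, and with these set to the bound of 3 counts over the group the median was -4.24. The Xlr copies are nearly identical, so reads may have been shared out among them. Their summed level, which sharing between them leaves alone, was 55.3 and 60.7 CPM in WT and 3.11 and 2.92 CPM in D395A.

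Zinc finger genes named Zfp, of which many carry a KRAB domain and silence transposons, fell in 137 and rose in 83 of 301 cases. These were 45.5% and 27.6%, against 37.1% and 32.3% of all tested members. In some stretches of the genome all calls of Zfp genes had the same direction. Runs were defined as tested Zfp genes with starts no more than 1 Mb apart and at least 5 of them. Of 17 such runs, 5 held lower calls without a higher one, 2 held higher calls without a lower one, and 10 held both. An example of the mixed kind is the run on chromosome 7 from 24081924 to 25227507, with 4 higher and 3 lower of 12. In the run on chromosome 4 (145510759 to 147848366) 17 of 18 fell and none rose, with a median of -1.15, from Zfp981 (84.3 and 94.6 to 21 and 19.3 CPM) to Zfp933, which did not pass. On chromosome 7 (41633203 to 43618285) 9 of 10 fell, and on chromosome 17 (21008941 to 23599487) 15 of 22 fell and 2 rose. The opposite held on chromosome 6 (47819266 to 48445825), where all 8 rose (median 1.19), and on a second stretch of chromosome 7 (127244274 to 127615797), where 5 of 6 rose and none fell, led by Zfp629, from 2.24 and 2.52 to 52.1 and 54.7 CPM. Other tested members inside the chromosome 4 run leaned the same way (19 lower, 7 higher of 42), as did those inside the run on chromosome 2 (176670522 to 178078476; 19 lower, 1 higher of 22). Those in the chromosome 7 runs from 41633203 (9 lower, 0 higher of 12) and from 127244274 (4 higher, 0 lower of 9) did too. The 7 inside the chromosome 17 run did not (2 lower, 2 higher), and of 2 inside the chromosome 6 run 1 rose. Chromosome 6 members with at least 10 CPM leaned up as a whole (156 higher, 94 lower of 315, median 0.17). Whether the direction of a run belongs to the family or to the region was not tested. The 134 Zfp genes outside runs were nearly even, with 52 lower (38.8%) and 47 higher (35.1%), near the shares of all tested members. Of the 167 in runs 85 were lower (50.9%) and 36 higher (21.6%). Reads of near-identical zinc finger copies may have been shared out here too.

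**Figure D4:**
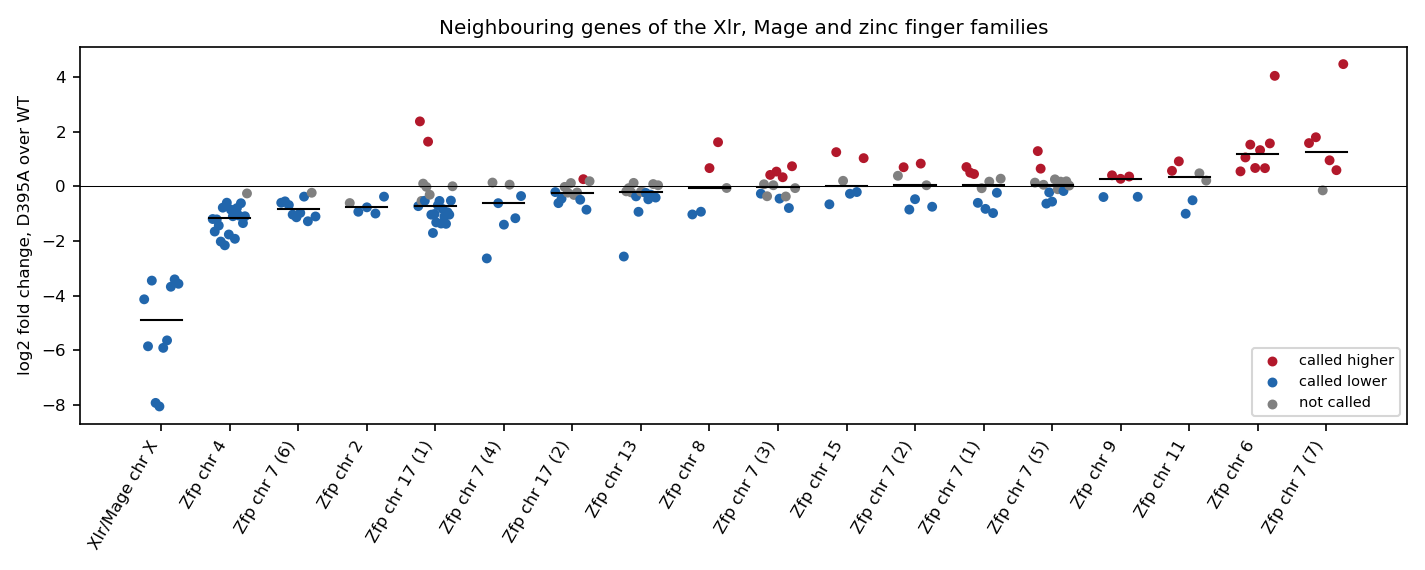
Points are the log2 fold changes (D395A over WT) of neighbouring genes of a family in order along the chromosome, red where called higher, blue where called lower and grey where not called, and black lines are medians. A number in parentheses counts the runs of a chromosome from its start. The Xlr and Mage run lies lowest with a median of -4.89, and the Zfp runs range from -1.15 on chromosome 4 to 1.27 on the last run of chromosome 7.

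By RefSeq biotype (GRCm38.p6), 9420 tested members were protein coding, of which 3520 rose and 3460 fell, with 1621 rises and 986 falls of at least 2-fold. Of 392 long non-coding RNAs 169 fell and 76 rose. Of 94 small nucleolar RNAs 39 fell (41.5%) and 3 rose (3.19%), and of 46 small nuclear RNAs 21 fell (45.7%) and 1 rose (2.17%). Over all tested members 37.1% fell and 32.3% rose, so these small RNAs stood apart mainly by their few rises. Of the small nucleolar RNAs 52 were not called and of the small nuclear RNAs 24, and their median levels were low (1.45 and 1.93 CPM). The counts of such short RNAs depend on fragment size, whose part was not tested. A further 1714 tested members had no match in that table, and of these 694 fell and 287 rose (median -0.46).

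The data bear on m6A through a list of peaks called by the authors in chromatin RNA of WT cells. Members were grouped by the number of peak summits inside their exons, without regard to strand, and unless stated only those with at least 10 CPM were compared. Of 2335 members without a peak 1194 fell and 546 rose (median -0.20), and of 4713 members with a peak 1765 fell and 1857 rose (median 0.02). The order held in each class of level. Between 30 and 100 CPM the median was -0.18 with no peak, 0.02 with 1 or 2 peaks and 0.20 with 3 or more, and at 100 CPM or more it was -0.24, -0.11 and -0.01. It did not continue to the most heavily marked members, since the 149 with 5 or more peaks had a median of -0.04. Over all levels, machinery genes carried a peak in 49.9% of cases and surface and signalling genes in 69.2%, against 54.2% of all tested members. That last share includes members at low level, of which 23.1% under 1 CPM had a peak. At 10 CPM or more, 322 machinery genes had a peak and 324 had none, against 4713 and 2335 of all members. Surface genes at that level counted 89 and 16, and signalling genes 126 and 32. Within the machinery genes of at least 10 CPM the median was -0.35 without a peak and -0.13 with one, so a lower level was seen in both. Zinc finger genes, taken at all levels, were lower in both classes: of 271 with a peak 120 fell and 73 rose (median -0.18), and of 30 without one 17 fell and 10 rose (median -0.54).

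The change also varied with exon structure. Members with fewer than 200 exonic bases per exon had a median of -0.33 without a peak and -0.09 with one, and those with 1000 bases or more had -0.08 and 0.12. Members with 2 to 4 exons had a median of 0.08 and those with 21 or more had -0.17. Quartiles of these classes overlap widely, and peak calls also depend on expression and length. These are descriptions across genes, which are not independent.

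**Figure D5:**
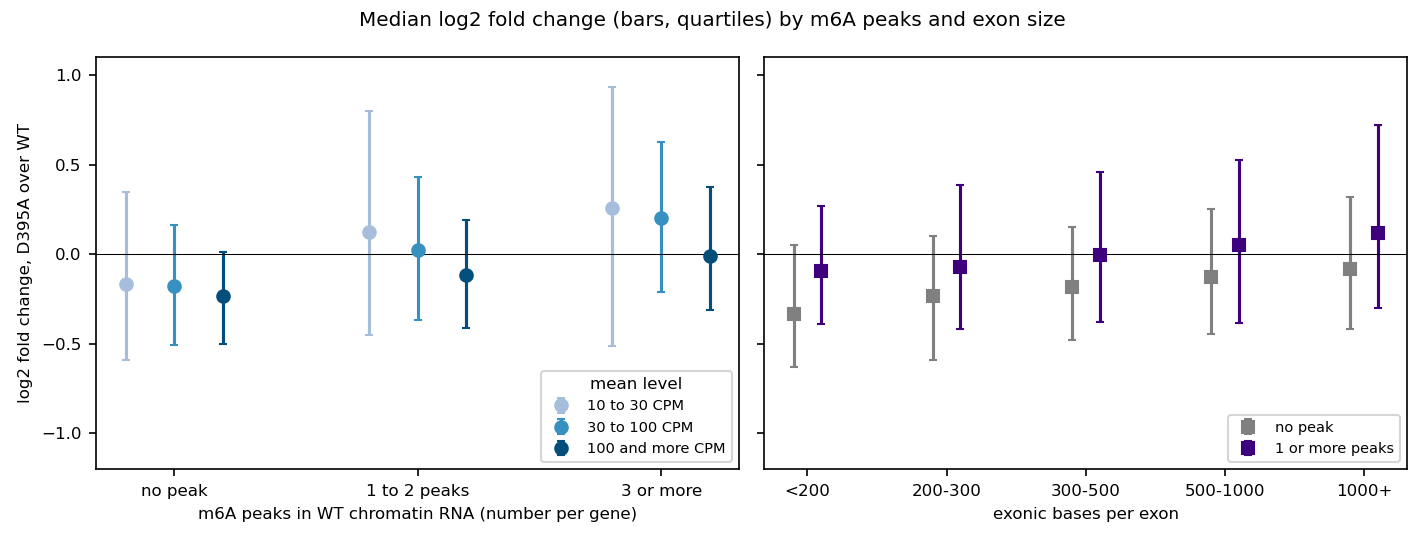
Points are median log2 fold changes (D395A over WT) of members with at least 10 CPM and bars reach from the lower to the upper quartile, by number of WT m6A peaks within 3 classes of level (left) and by exonic bases per exon with and without peaks (right). On the left, medians rise with peak number from -0.17 to 0.25 at 10 to 30 CPM and from -0.24 to -0.01 at 100 CPM or more. On the right they rise from -0.33 to -0.08 without peaks and from -0.09 to 0.12 with peaks, while the quartile ranges overlap.

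Promoter letters differed between the 2 programmes. A RefSeq promoter (GRCm38.p6, 250 bases before to 50 after the start site) on the same strand was found for 7793 of the 12377 tested members. The words searched, on both strands, were chosen after promoters had been looked at. Besides the 2 words described here, words for the E-box, CRE, NRF1, TATA box, YY1 and NFY were searched. At 10 CPM or more the YY1 word stood in 9.07% of machinery and 2.07% of surface and signalling promoters. The core of the ETS and GABP motif, CCGGAAG, stood in 20.1% of the 5371 such promoters of members with at least 10 CPM. It stood in 28.9% of 529 machinery promoters and 11.4% of 193 surface and signalling promoters, and its share differed between classes of change: 9.17% of members at least 2-fold higher, 16.8% of those higher by less, 23.7% of those not called, 23.9% of those lower by less and 14.4% of those at least 2-fold lower held it. The following stretches come from machinery members called lower that hold this word before the start site, taken in order of mean CPM. Snrnp200, Eif3c and Cct2 changed by -0.52, -0.59 and -0.28 on the log2 scale. Gars, ranked with them but not shown, changed by -0.16, and the median of all machinery genes was -0.23. Snrnp200, a spliceosome helicase, fell from 656 and 634 to 432 and 468 CPM, Eif3c, a subunit of the largest initiation factor, from 510 and 502 to 338 and 333 CPM, and Cct2, a CCT subunit, from 445 and 439 to 378 and 350 CPM. Capitals mark the word on either strand and all letters run 5′ to 3′ on the strand of the gene.
Snrnp200 (chr2:127208303-127208385, plus strand): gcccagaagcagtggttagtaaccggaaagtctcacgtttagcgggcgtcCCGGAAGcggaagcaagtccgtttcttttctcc
Eif3c (chr7:126566367-126566484, minus strand): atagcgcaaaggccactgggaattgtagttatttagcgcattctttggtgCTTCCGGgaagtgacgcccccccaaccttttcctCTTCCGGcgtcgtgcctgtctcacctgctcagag
Cct2 (chr10:117063853-117063920, minus strand): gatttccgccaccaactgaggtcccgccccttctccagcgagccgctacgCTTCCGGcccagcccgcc

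The octamer ATGCAAAT, the word bound by the pluripotency factor OCT4 and its relatives, is scarce in these windows, standing in 1.28% of the same 5371 promoters. Among the 390 members at least 2-fold lower 13 held it (3.33%), against 7 of 480 at least 2-fold higher (1.46%) and 26 of 1875 lower by less (1.39%). It also stood in 2 of 24 promoters of the developmental transcription factor lists (8.33%), which leaned towards rises. As 1 of several words searched, its share is a description and was not tested. The 13 include Zfp42 (Rex1), a classical naive marker that fell from 497 and 500 to 204 and 202 CPM, and Fkbp5, a chaperone of steroid receptors that fell from 203 and 197 to 85 and 87.4 CPM. Pnma5, an X-linked gene, fell from 40.8 and 41.9 to 1.29 and 1.17 CPM, and Wdr70 from 51.2 and 52.6 to 22.5 and 24.8 CPM. Stretches of the promoters of Wdr70 and Pnma5 are shown with the octamer in capitals, in either orientation, and a match of letters shows no binding.
Wdr70 (chr15:8099368-8099459, minus strand): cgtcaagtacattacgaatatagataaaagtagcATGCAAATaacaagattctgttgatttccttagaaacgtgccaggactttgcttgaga
Pnma5 (chrX:73037124-73037231, minus strand): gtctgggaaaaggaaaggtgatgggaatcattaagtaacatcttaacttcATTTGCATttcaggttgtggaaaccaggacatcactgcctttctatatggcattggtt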

How the data were processed

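RNA-seq of 2 WT and 2 D395A libraries was analysed from 1 table of raw read counts per gene, deposited by the authors with exon coordinates and exonic length, and no source used here says whether counting used strand. The submitters' processing notes list, with no step assigned, builds mm10 and hg38, edgeR 3.22.5, featureCounts 1.6.3, SAMtools 1.7, HISAT2 2.1.0, Trimmomatic 0.33.0 and FastQC. Coordinates are those of mm10. The column for D395A replicate 1 differs in 1 character from D395A. Peak positions are from the authors' deposited WT list in the MACS2 layout (MACS2 2.1.1 in the same notes), and its -log10 q column, as deposited, was not used to rank peaks.

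Members were genes with 0 exonic bases shared with an opposite-strand exon. The edgeR 4.0.16 quasi-likelihood test (R 4.3.3, filterByExpr, TMM) was fitted on all genes, with Benjamini-Hochberg adjustment over the 17778 tested and a threshold of 0.05. No term for replicate was fitted. The biological coefficient of variation was 5.47%. Members and the 93 gene lists were chosen with earlier results of these data known, so counts and medians describe lists and test nothing. Genes were named by rule: per list and direction up to 2 called members with the largest change, at least 5 CPM in the higher group and both D395A libraries beyond both WT libraries, then per direction the 12 with the largest difference in CPM. Of these the text gives a part. Other genes named with a group mean or log2 fold change were chosen after their values were seen. So were the zinc finger, Frizzled, ephrin, Eph receptor, Id, cilium, Nup and replication subsets, the runs and the promoter words. Subsets looked at but not described were autophagy Atg genes (9 lower, 1 higher of 13) and RNA polymerase II subunits (3 lower, 2 higher of 8). Cnot genes (2 lower, 1 higher of 6) and Celsr genes (1 lower, 1 higher of 3) were others. Code was tested on simulated data. Alternatives were DESeq2 1.42.0, upper quartile scaling, scaling and testing members alone, other count filters, limma-voom (limma 3.58.1), a replicate block, each library left out, stricter overlap rules, and leaving out chromosomes 8 and Y. The other 52 samples of the series were not analysed here, apart from the WT peak list. Figures used matplotlib 3.10.9 and Python 3.11.15. Some genes are not reported here.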

Additional observations from a re-analysis of the deposited data

How the results depend on the processing

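All 4 counts of called members stayed within 1.5 times of their values under the 14 alternatives run. With each library left out in turn, 3609 to 4137 members were higher, 3862 to 4543 lower, 1941 to 2016 at least 2-fold higher and 1590 to 1801 at least 2-fold lower. With 1 library left in a group, the fit takes its spread from the other group. With the replicate number as a block, the counts were 4079, 4700, 1928 and 1740. Deviations of same-numbered libraries correlated at -0.01 across genes, which cannot show whether they shared a batch, and the labels do not say. Same-numbered libraries were alike in total counts. These were 13953069 (WT) and 12743677 (D395A) for replicate 1 and 19246342 (WT) and 18151353 (D395A) for replicate 2. DESeq2 gave the lowest counts of higher and lower members, 3381 and 3533, and no filter the highest, 4687 and 4785. Of 8594 called members, 6907 were called in the same direction by DESeq2, and 7107 to 7995 with a library left out, with 1 in the opposite direction without D395A replicate 2. Members were 46.5% higher among calls, and 50.2% when scaled and tested alone. Of 3795 values of named genes under alternatives, 3765 kept direction and call and 30 kept direction only. Of 2602 list counts 108 moved by more than 1.5 times, and of 1301 list medians 265 moved by more than the spread between libraries. Setting genes at 0 in one group to the bound of 3 counts left the medians of the large groups as given. With 2 libraries a group, changes of 2-fold or less can be missed. In simulated libraries 66.7% of 1.5-fold changes were called, 70.2% of 2-fold changes and 100% of 4-fold changes. There only 200 genes were changed, with 17507 tested, and the same dispersion was used for both groups. All 1.5-fold and 4-fold changes were rises and all 2-fold changes were falls. These shares therefore do not give the share of changes missed in the real libraries, where far more genes were called. Counts of the subsets, gene runs, peak classes and promoter words were not run under the alternatives.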
